A study of Homo sapiens with 8 samples.

Results

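The NRF2 oxidative stress genes are NFE2L2, which encodes the transcription factor NRF2, its inhibitor KEAP1, and 8 well known NRF2 targets. They were chosen by name from the gene symbols of the count table, and all 10 were found among its 23459 genes. RNA had been sequenced from Hct116 cells, an established human colorectal carcinoma line, in 4 libraries per treatment. The cells had been kept for 16 h in 30 μM lenalidomide or in the solvent DMSO alone. Lenalidomide binds cereblon, the substrate receptor of a CUL4 ubiquitin ligase, and redirects that ligase to proteins it does not otherwise degrade. At the start of treatment the cells of both groups changed medium for SILAC labelling of arginine and lysine. In 2 of the 4 replicates per treatment the labels were swapped, and which RNA libraries these are is not given in the sources used here. The harvested cells were split between proteomics and RNA extraction. The RNA served to ask whether the drug altered transcript levels beside protein turnover, and here that question was put to the NRF2 pathway in 1 cell line, at a single dose and time.

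NRF2 is made continuously and, in unstressed cells, is held by KEAP1, an adaptor that presents it to a CUL3 ubiquitin ligase for degradation. Electrophiles and oxidants modify cysteines of KEAP1, so that NRF2 escapes, pairs with small MAF proteins in the nucleus and binds antioxidant response elements. Its targets make and recycle glutathione and thioredoxin, reduce quinones and break down haem, and because the control of NRF2 acts mainly on the protein, its activity is usually read from these targets rather than from NFE2L2 RNA.

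The core of the antioxidant response element, TGACNNNGC, was looked for on both strands of the RefSeq promoter windows (GRCh38.p14), each of which spans 250 bases before a transcription start to 50 bases after it. Windows were found for 9 of the 10 genes, HMOX1 being the exception, and 4 of their 12 windows held at least 1 match. Over all 35116 windows of this length the share with a match was 13.3%. The 3 genes with a match were GCLM, TXNRD1 and KEAP1. Their stretches are shown 5′ to 3′ along the gene, because these are the places near the start sites where the letters of the element occur. Capitals mark the motif, which reads GCNNNGTCA where it lies on the opposite strand. A match in letters is not a measured binding site. Sequence farther from the start was not searched, so a window without a match does not mean that the gene lacks the element.
GCLM, chr1:93909436-93909484, minus strand: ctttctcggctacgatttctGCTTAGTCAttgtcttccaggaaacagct
TXNRD1, chr12:104215660-104215708, plus strand: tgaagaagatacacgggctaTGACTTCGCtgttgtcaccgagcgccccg
TXNRD1, chr12:104215751-104215799, plus strand: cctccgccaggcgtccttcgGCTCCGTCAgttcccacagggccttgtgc
TXNRD1, chr12:104286910-104286958, plus strand: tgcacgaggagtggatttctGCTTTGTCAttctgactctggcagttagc
KEAP1, chr19:10502774-10502845, minus strand: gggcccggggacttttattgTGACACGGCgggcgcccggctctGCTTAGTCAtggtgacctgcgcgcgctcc
The GCLM match begins 34 bases before the start. The TXNRD1 matches begin 99 and 8 bases before one start and 102 bases before another.

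Library totals were between 28218471 and 37473413 counts, and the 4 lenalidomide libraries were the smallest. The 10 genes together held between 59420 and 89149 counts per library. Of 7 colon epithelial markers 6 passed the filter on low counts, and their list summed to between 2220.5 and 2595.8 CPM per library. EPCAM and KRT19 were among the high ones, whereas VIL1 was near 0 with 0.0411 CPM in DMSO. A list of 7 markers of blood, stroma, vessel and liver summed to between 7.29 and 9.21 CPM, mostly CD68 and COL1A1, and PTPRC and CD3E were at or near 0. CPM are counts per 1000000 counts of a library, corrected by its TMM factor. The series and the study's description of its RNA-seq call the replicates biological, whereas the proteomics methods call theirs technical, so whether the p-values measure more than technical spread was not settled here.

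No called difference was found in the NRF2 genes, from the factor and its inhibitor to the glutathione, thioredoxin, quinone and haem enzymes. Of the NRF2 genes tested, SRXN1 had the largest fold change in size, 0.921-fold. Of the 10 genes, 9 had enough counts to be tested, and 0 of these 9 passed an adjusted p of 0.05 in edgeR's quasi-likelihood fit of 13925 genes (Benjamini-Hochberg), where 0.0144% of all genes passed. The count was also 0 at an unadjusted p under 0.05, which 4.18% of all genes had, and 0 of 9 were called by DESeq2, by the likelihood ratio test or after all libraries were thinned to the depth of the smallest. Log2 fold changes of lenalidomide over DMSO ran from -0.12 for SRXN1 to 0.086 for NQO1, with a median of -0.0082 beside 0.0025 over all genes tested. The 9 genes had 95% confidence intervals that included 0, and together these intervals reached from -0.27 to 0.26. For 0 of the 9 genes were the ranges of both treatments apart, against 2.08% of all genes. The 4 lenalidomide libraries overlapped the 4 DMSO libraries in each of the 9.

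**Figure D1:**
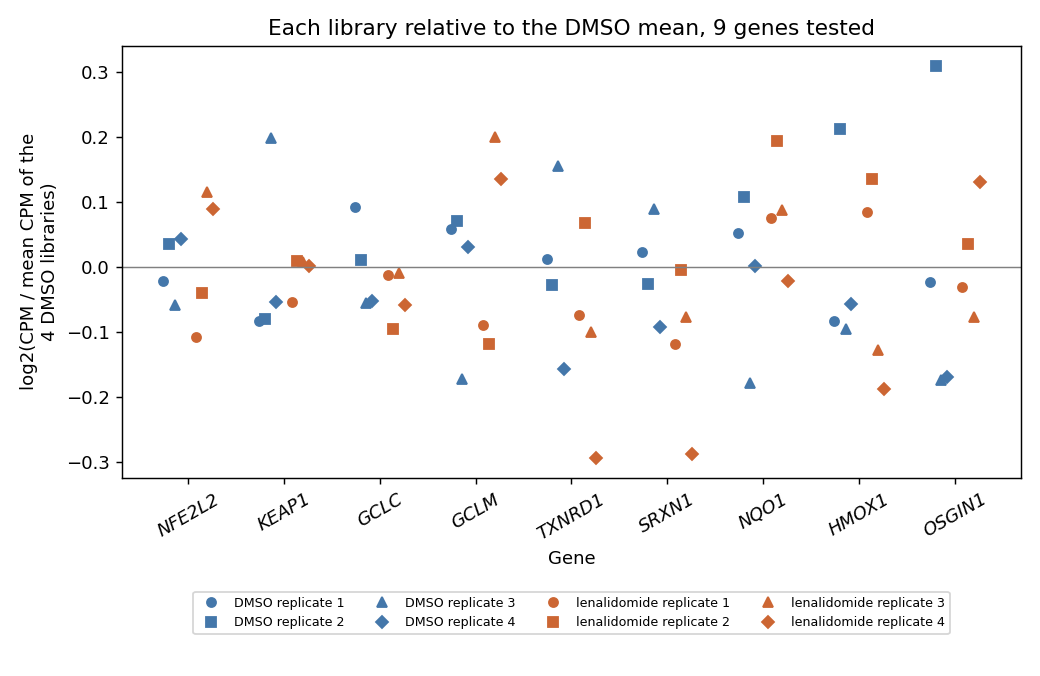
log2 of the CPM of each library over the mean CPM of the 4 DMSO libraries, for the 9 genes tested. Colours show the treatment and symbols the replicate number. DMSO and lenalidomide points overlap in every gene, and the points farthest from 0 belong to single libraries, such as DMSO replicate 2 for OSGIN1 and lenalidomide replicate 4 for TXNRD1 and SRXN1.

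The regulators come first. NFE2L2 (Entrez gene 4780; chromosome 2 of GRCh37, 178083395 to 178257484, minus strand) had 80.3, 83.5, 78.2 and 83.9 CPM in DMSO replicates 1 to 4 and 75.6, 79.3, 88.3 and 86.6 CPM in the lenalidomide replicates. The lenalidomide libraries lay on both sides of the DMSO range, with 1 below it and 2 above it. The DMSO mean was 81.5 ± 2.70 CPM and the lenalidomide mean 82.4 ± 6.01 CPM (SD, n = 4 per treatment). The fold was 1.01, with a 95% confidence interval from 0.927 to 1.10. In the annotation used for positions, exons of NFE2L2 overlap those of AGPS and HNRNPA3 on the opposite strand. Long noncoding RNA genes without a symbol also overlap them, on both strands.

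KEAP1 (Entrez gene 9817; chromosome 19, 10596801 to 10614234, minus strand) had 85.9, 86.0, 104 and 87.6 CPM with DMSO and 87.6, 91.6, 91.4 and 91.1 CPM with lenalidomide. DMSO replicate 3 stood above the other 7 libraries. The highest of the other 3 DMSO values, 87.60 CPM in replicate 4, was nearly the same as the lowest lenalidomide value, 87.63 CPM in replicate 1. The means of 91.0 ± 8.95 and 90.4 ± 1.88 CPM (SD, n = 4 each) gave a log2 fold change of -0.0082 with a standard error of 0.064. Without DMSO replicate 3 the log2 fold change was 0.060 (unadjusted p = 0.215, adjusted p = 0.939, edgeR quasi-likelihood test). Per length of exon, KEAP1 had the higher value of both regulators, with 33.7 ± 3.31 RPKM against 15.8 ± 0.526 RPKM for NFE2L2 in DMSO (SD, n = 4 each). RPKM are CPM per kilobase of the exonic width given in the table. These widths are 2701 bases for KEAP1 and 5144 bases for NFE2L2, whereas the DMSO means were 91.0 and 81.5 CPM. The order per length rests on these widths, and whether the RNA in these cells spans them was not tested. The ratio of NFE2L2 to KEAP1 per length was 0.474 ± 0.0542 with DMSO and 0.478 ± 0.0288 with lenalidomide (SD, n = 4 each).

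Glutamate-cysteine ligase, the enzyme of the first and rate-limiting step of glutathione synthesis, is built from the catalytic subunit GCLC and the modifier subunit GCLM. GCLC (Entrez gene 2729; chromosome 6, 53362139 to 53481768, minus strand) ranged from 88.1 to 97.7 CPM with DMSO and from 85.8 to 91.0 CPM with lenalidomide. Its interval was the narrowest of the members, with a fold of 0.970 between limits of 0.898 and 1.05. Exons of GCLC overlap those of GCLC-AS1 on the opposite strand and of a long noncoding RNA gene without a symbol on the same strand. GCLM (Entrez gene 2730; chromosome 1, 94350755 to 94375012, minus strand) had 42.0, 42.4, 35.8 and 41.2 CPM with DMSO and 37.9, 37.2, 46.3 and 44.3 CPM with lenalidomide. Lenalidomide replicates 1 and 2 were below 3 of the DMSO libraries and replicates 3 and 4 were above all 4, so that the spread within the treatment was larger than the difference between the means of 40.4 ± 3.08 and 41.4 ± 4.58 CPM (SD, n = 4 each). NFE2L2 was likewise lower in lenalidomide replicates 1 and 2 than in 3 and 4. Per length both subunits had like levels, with 1.13 ± 0.0722 GCLC per GCLM in DMSO and 1.07 ± 0.109 in lenalidomide (SD, n = 4 each). The exonic widths behind this ratio were 6221 bases for GCLC and 3074 bases for GCLM.

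Thioredoxin reductase 1, the selenoprotein that uses NADPH to reduce thioredoxin, is encoded by TXNRD1 (Entrez gene 7296; chromosome 12, 104609557 to 104744085, plus strand). It was the most abundant member, with 1468, 1427, 1620 and 1306 CPM in DMSO and 1383, 1525, 1357 and 1187 CPM with lenalidomide. The lowest value was that of lenalidomide replicate 4 and the highest that of DMSO replicate 3. The log2 fold change was -0.094 (standard error 0.083, adjusted p = 0.999, edgeR quasi-likelihood test), and its interval ran from -0.27 to 0.084. Without lenalidomide replicate 4 it was -0.034, and without lenalidomide replicate 2 it was -0.15.

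SRXN1 (Entrez gene 140809; chromosome 20, 627259 to 633844, minus strand) encodes sulfiredoxin, which restores overoxidised peroxiredoxins. It had 142, 137, 148 and 131 CPM with DMSO and 128, 139, 132 and 114 CPM with lenalidomide. In 2 of the 4 lenalidomide libraries it was below the whole DMSO range, and in the other two it was within it. Its means were 139 ± 7.43 and 128 ± 10.4 CPM (SD, n = 4 each). It had the largest fold change in size of the 9 members tested, 0.921-fold with limits of 0.837 and 1.01. Its unadjusted p of 0.0884 was the lowest of the 9, and its adjusted p was 0.999 (edgeR quasi-likelihood test). Without lenalidomide replicate 4 the log2 fold change was -0.066, and without lenalidomide replicate 2 it was -0.16. TXNRD1 and SRXN1 ranked the 4 DMSO libraries in the same order, and with lenalidomide both were highest in replicate 2 and lowest in replicate 4. Their ratio per length was 5.38 ± 0.199 with DMSO and 5.47 ± 0.168 with lenalidomide (SD, n = 4 each). In the annotation used for positions, exon bases of SRXN1 are shared with a protein-coding gene without a symbol on the same strand. Reads over these bases could come from either gene, and how they were counted was not tested.

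NQO1 reduces quinones with electrons from NAD(P)H and is widely used as a marker of NRF2 activity. NQO1 (Entrez gene 1728; chromosome 16, 69740899 to 69760571, minus strand) had 456, 474, 389 and 441 CPM in DMSO and 464, 503, 468 and 434 CPM with lenalidomide. One lenalidomide value was above the DMSO range and none was below it. The log2 fold change was 0.086 (standard error 0.069), the highest among the 9, with an interval from -0.062 to 0.23. This interval put the upper limit at 1.18-fold. Without DMSO replicate 3, the lowest NQO1 library, the log2 fold change was 0.028. Exons of NQO1 overlap those of a long noncoding RNA gene without a symbol on the opposite strand.

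AKR1C1, an aldo-keto reductase of steroids and lipid aldehydes, was close to absent from the counts. AKR1C1 (Entrez gene 1645; chromosome 10, 5005445 to 5025475, plus strand) had 7, 7, 8 and 7 counts in the DMSO libraries and 5, 6, 9 and 8 counts in the lenalidomide libraries, and it did not pass the filter on low counts. With no filter beyond 1 count its log2 fold change was 0.15 with an interval from -0.80 to 1.10, the widest interval of the 10 genes. The related AKR1C2 and AKR1C3, close relatives with which reads of AKR1C1 could have been shared, were at 0.0216 and 0.152 CPM over the 8 libraries. How reads that match several of these genes were counted was not tested, so low counts need not mean low RNA.

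Haem oxygenase 1, which opens the haem ring and releases iron, biliverdin and carbon monoxide, is induced by NRF2 when the repressor BACH1 leaves its enhancers. HMOX1 (Entrez gene 3162; chromosome 22, 35776354 to 35790207, plus strand) was low, with 7.31, 8.97, 7.25 and 7.44 CPM in DMSO and 8.21, 8.51, 7.08 and 6.79 CPM with lenalidomide. DMSO replicate 2 was the highest library and lenalidomide replicate 4 the lowest. The means of 7.74 ± 0.821 and 7.65 ± 0.835 CPM (SD, n = 4 each) rested on 196 to 325 counts per library, and the fold of 0.989 had limits of 0.848 and 1.15. OSGIN1 (Entrez gene 29948; chromosome 16, 83964916 to 83999937, plus strand), an oxidative stress induced growth inhibitor, ranged from 6.31 to 8.83 CPM with DMSO and from 6.75 to 7.80 CPM with lenalidomide. Its fold of 1.01 had the widest interval of the 9 genes, from 0.856 to 1.19. Exons of OSGIN1 overlap those of MLYCD on the same strand.

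**Figure D2:**
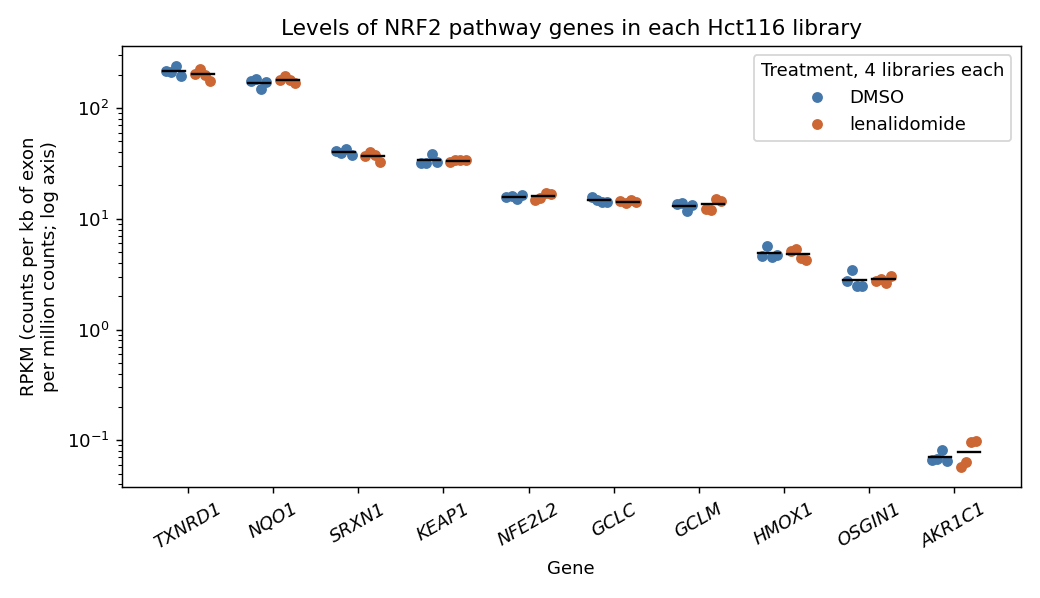
RPKM on a log axis for the 10 genes in order of their level. Each point is a library, coloured by treatment, and black lines are means of 4 libraries. TXNRD1 and NQO1 stand near 200 RPKM, and AKR1C1 stands below 0.1 RPKM.

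Per length of exon the members spanned more than 3 orders of magnitude. Their order rests on the exonic widths given in the table. TXNRD1 had 215 ± 19.2 RPKM in DMSO and NQO1 170 ± 14.2 RPKM. By their mean RPKM over all 8 libraries they stood at the 98.2 and 97.8 percentile of the genes tested. The TXNRD1 and NQO1 values did not overlap in DMSO but did with lenalidomide. SRXN1 followed with 40.0 ± 2.13 RPKM and KEAP1 with 33.7 ± 3.31 RPKM, and their DMSO values overlapped. NFE2L2 with 15.8 ± 0.526 RPKM, GCLC with 14.7 ± 0.721 RPKM and GCLM with 11.6 to 13.8 RPKM lay close together. Of these, NFE2L2 and GCLC overlapped in DMSO and not with lenalidomide, and GCLC and GCLM overlapped with lenalidomide and not in DMSO. HMOX1 with 4.87 ± 0.517 RPKM and OSGIN1 with 2.80 ± 0.466 RPKM did not overlap in either treatment, and AKR1C1 was at 0.0704 ± 0.00808 RPKM (DMSO values, SD, n = 4).

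The libraries differed among themselves by as much as the treatments. The median coefficient of variation of the 9 genes was 8.35% in DMSO and 7.29% in lenalidomide, beside 7.25% and 7.68% over all genes tested. DMSO replicate 3 was the lowest DMSO library in 6 of the 9 genes and the highest in the other 3, KEAP1, TXNRD1 and SRXN1. The genes with centred log2 CPM nearest to NFE2L2 over the 8 libraries were EPC1, SLC44A1 and RB1, at root mean square differences of 0.0158, 0.0193 and 0.0221, among 9094 genes that averaged 10 CPM or more.

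The rest of the pathway was taken from 6 lists with 47 genes, of which 41 were tested. None passed in either direction with the quasi-likelihood test, DESeq2 or the likelihood ratio test, and 1 had an unadjusted p under 0.05. Their log2 fold changes had a median of -0.0029 and ran from -0.23 to 0.17. All 41 were under 0.25 in size, as were 92.6% of all genes tested, and the ranges of both treatments were apart in 0 of them.

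Among the 9 partners and regulators of NRF2, 0 passed the test in either direction. RBX1 is the RING subunit that CUL3 and other cullin ligases use to recruit the ubiquitin-loaded E2. It was the gene with the unadjusted p under 0.05. In edgeR's quasi-likelihood test this p was above 0.05 without DMSO replicate 2 (0.0769) or 4 (0.106) or lenalidomide replicate 2 (0.0607) or 4 (0.0712). It stayed under 0.05 without DMSO replicate 1 (0.0295) or 3 (0.00363) or lenalidomide replicate 1 (0.0310) or 3 (0.0243). The p was also under 0.05 with DESeq2 (0.0248), the likelihood ratio test (0.0264), and the other scalings, filters, block and thinning tried. The adjusted p passed in none of these fits. RBX1 had 22.3, 24.4, 20.5 and 25.5 CPM with DMSO and 21.2, 19.7, 21.5 and 19.1 CPM with lenalidomide. In 2 lenalidomide libraries RBX1 was below the DMSO range and in 2 it was within it. The log2 fold change was -0.19 (unadjusted p = 0.0275, adjusted p = 0.999, edgeR quasi-likelihood test). CUL3, the scaffold of the ligase that KEAP1 serves, ranged from 235 to 262 CPM in DMSO and from 233 to 270.3 CPM in lenalidomide. Log2 fold changes of the list had a median of -0.043, and 7 of 9 were below 0, beside 48.7% of all genes tested. Of these 9 changes, 6 were smaller than their standard error.

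The glutathione list had 9 of 11 genes tested and 0 past the test, with a median log2 fold change of 0.025. In this list 7 changes were above 0 and 2 below, beside 7144 of all 13925 genes tested above 0. GSTP1, a glutathione transferase and the gene of this list with the highest mean CPM over all 8 libraries, had 216 ± 7.79 and 216 ± 9.98 CPM (SD, n = 4 each). Of the 3 genes in the thioredoxin system list 0 passed. All 3 changes were below 0, beside 48.7% of all genes tested, with a median of -0.033. Each of the 3 was smaller than its standard error. PRDX1, the peroxiredoxin that thioredoxin keeps reduced, ranged from 1120 to 1216 CPM in DMSO and from 1052 to 1278 CPM in lenalidomide. The 6 genes of NADPH supply had a median of 0.0089 and 0 passed, and PGD, of the oxidative pentose phosphate pathway, had a fold of 0.981 with limits of 0.880 and 1.09.

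Of the 7 haem and iron genes 0 passed. FTL, the ferritin light chain, averaged 497 ± 42.4 CPM in DMSO and 482 ± 20.7 CPM in lenalidomide (SD, n = 4 per treatment), and it has pseudogenes with which reads could have been shared. The list of carbonyl, quinone and xenobiotic enzymes had 7 of 11 genes tested and 0 past the test. UGDH, which makes UDP-glucuronic acid for conjugation, had the highest mean CPM over all libraries and had a log2 fold change of -0.029. The 6 genes not tested in the 6 lists were GPX2, GSTM3, AKR1C2, AKR1C3, AKR1B10 and CBR1.

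**Figure D3:**
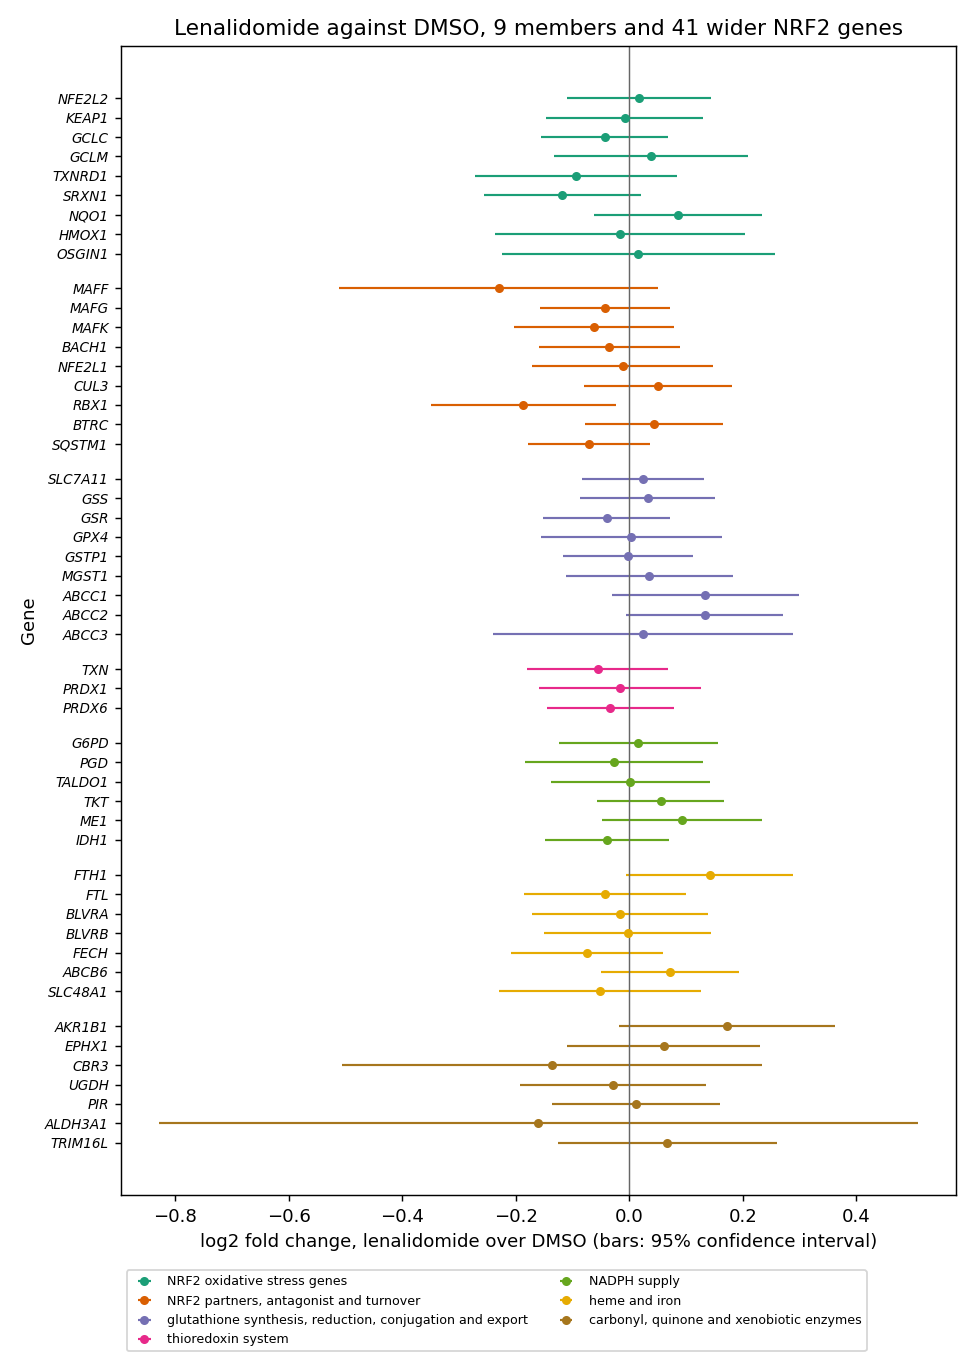
log2 fold change of lenalidomide over DMSO with 95% confidence intervals from edgeR's quasi-likelihood fit, for the 9 members and the 41 genes of the 6 lists that were tested. Colours mark the lists. The points lie between -0.23 and 0.17, and RBX1 is the 1 gene whose interval leaves out 0.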

How the data were processed

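Reads were mapped by the authors to hg19 (GRCh37) with QuasR, and the authors deposited raw counts per gene over UCSC known genes, with exonic width in bases as another value in the table. The submitters' processing notes name bcl2fastq 2.17, and the QuasR version is not given in the sources used here. No strand setting is named beyond default parameters, so reads of opposite-strand neighbours cannot be told apart. Counts were tested in R 4.3.3 with edgeR 4.0.16 (filterByExpr with a minimum count of 10 and total of 15, TMM, glmQLFit, glmQLFTest), which tested 13925 genes at an adjusted p of 0.05. The 70 rows without a symbol held 0.0223% of the counts and were kept. Confidence intervals are at 95%. Standard errors come from the coefficient and its F statistic. PCR copies are counted as if independent. DESeq2 1.42.0 was an alternative. The fit was checked on simulated counts.

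Positions come from GENCODE on GRCh37, and promoter windows from RefSeq on GRCh38.p14. The 10 members and the 6 lists were chosen with earlier results of these data known. Named genes of the lists are the one with the highest mean CPM over all 8 libraries per list and those with an unadjusted p under 0.05, and the 6 untested ones were named after their values were seen. One marker gene is not reported here. No pairing of same-numbered libraries is stated in the sources used here, so the numbers were not taken as pairs. Same-numbered libraries of both treatments deviated together with correlations of 0.0282, -0.0241, 0.0313 and 0.268 for replicates 1 to 4. The correlation of replicate 4 was the highest, and a fit with the replicate number as a block was among the alternatives.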

Additional observations from a re-analysis of the deposited data

Results flagged for a closer look

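Among 34 groups of 4 libraries examined for the named genes, 4 contained 1 library set apart from the rest, and chance alone would give about 2. The KEAP1 value of DMSO replicate 3, 104 CPM, lay above the 85.9 to 87.6 CPM of the other DMSO libraries. The KEAP1 value of lenalidomide replicate 1, 87.6 CPM, lay below the 91.1 to 91.6 CPM of the other lenalidomide libraries. The HMOX1 value of DMSO replicate 2, 8.97 CPM, lay above a range of 7.25 to 7.44 CPM. The AKR1C1 value of DMSO replicate 3, 0.234 CPM, lay above a range of 0.185 to 0.193 CPM, with 8 counts against 7 in each of the others.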

How the results depend on the processing

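Each of the 9 members tested was refitted under 16 alternatives, which were RLE scaling, library totals alone, DESeq2, the likelihood ratio test, both filters, the replicate number as a block, thinning to the smallest library and leaving out each library in turn. Of the 144 values none was past the threshold, and 131 kept their direction. The other 13 changed sign, in 5 genes whose log2 fold changes in the main fit were all within 0.038 of 0. The lowest adjusted p of a member was 0.604, for SRXN1 without lenalidomide replicate 2 (edgeR quasi-likelihood test). In that fit the unadjusted p of SRXN1 was 0.0313. With the replicate block the unadjusted p of SRXN1 was 0.0469 and its adjusted p 0.894 (same test). No member had an unadjusted p under 0.05 in the other alternatives. The count of members and of genes of the wider lists past the threshold was 0 in every alternative, and that of all genes, 2, was 9 with DESeq2 (6 higher, 3 lower), 12 with the likelihood ratio test (8 higher, 4 lower), 4 with no filter beyond 1 count (1 lower) and 6 with the replicate block (4 higher, 2 lower). The cause was not tested.

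Leaving out each library in turn gave from 1 to 2 genes, and members' median log2 fold changes from -0.040 without DMSO replicate 3 to 0.029 without DMSO replicate 2. Across these fits log2 fold changes ran from -0.018 to 0.056 for NFE2L2, from -0.039 to 0.060 for KEAP1, from -0.021 to 0.087 for GCLM, from -0.073 to 0.061 for HMOX1 and from -0.040 to 0.14 for OSGIN1. They ran from -0.24 to -0.14 for RBX1, from -0.092 to 0.0063 for FTL, from -0.030 to 0.021 for GSTP1, from -0.085 to 0.032 for PGD, from -0.073 to 0.022 for PRDX1 and from -0.070 to 0.055 for UGDH. Depth limits AKR1C1 most, at 5 to 9 counts per library.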
